A study of Mus musculus with 15 samples.

Results

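The genes described here are 10 germline meiotic genes, *Hormad1*, *Hormad2*, *Sycp1*, *Sycp2*, *Sycp3*, *Stag3*, *Rec8*, *Smc1b*, *Mael* and *Ddx4*. They were chosen by name as genes of the class that Polycomb complexes repress after fertilization, and all 10 had a row among the 14392 genes measured. Their RNA was followed in 8 Smart-seq2 libraries of C57BL/6 embryos, 2 for each genotype, WT or cKO, at each stage, zygote or 2-cell embryo, with 10 pooled embryos per library. The cKO embryos came from Usp16 fl/fl;Gdf9-Cre mothers and WT fathers. Gdf9-Cre acts in oocytes from the primordial follicle stage, so the deletion of *Usp16*, which encodes a histone H2A deubiquitinase, was maternal and the paternal allele stayed intact. Mothers were 21 to 23 days old and superovulated, fathers were 10 to 12 weeks old, and zygotes were collected 28 h after hCG. No source used here says whether the 2 pools of a group came from different matings, so p-values cover only the spread between these pools. In pools of whole embryos, fewer cells carrying an RNA and less of that RNA per cell cannot be told apart.

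In meiotic prophase, chromosomes are organised along a protein axis. Its core is a cohesin ring with the meiotic subunits REC8, STAG3 and SMC1B, on which SYCP2, SYCP3 and the HORMA domain proteins assemble. SYCP1 then zips homologous chromosomes together as the transverse filament of the synaptonemal complex. MAEL and the RNA helicase DDX4, also known as VASA, belong to the germ granules where piRNAs are made. Oocytes carry some of these RNAs as maternal stock. In somatic and embryonic cells many promoters of the class are silenced by DNA methylation and by PRC1.6, a Polycomb complex that places H2AK119ub1 and reaches DNA through E2F6 and the E-box binding pair MGA and MAX. H2AK119ub1 is the mark that USP16 removes, and its ChIP-seq samples in this series were not analysed here.

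Expression was given as FPKM, a read density per transcript length and per library that allows genes to be compared with each other. The authors had set every value under 1 to 1, so 1 is a floor and not a measurement, and read depth is unknown. *Usp16* itself was 184 and 187 in WT zygotes and 16.8 and 21.99 in cKO zygotes, 9.58-fold lower, and was at 168 and 84.8 in cKO 2-cell embryos against 168 and 183 in WT. cKO 2-cell replicate 2 stood apart, with an FPKM sum of 770989 against 547752 to 593317 in the other 7 libraries. Genes at the floor numbered 1642 and 1716 in WT and 3684 and 4240 in cKO 2-cell embryos, and 4242 to 4747 in zygotes. The median FPKM at the 2-cell stage was 7.24 and 7.22 in WT and 4.52 and 3.78 in cKO. How far this bears on members with low FPKM was not tested. The oocyte markers, 10 of 10 present, summed to 10788 and 11566 in WT and 10633 and 11008 in cKO zygotes, and at the 2-cell stage to 4958 and 6091 in WT and 1148 and 2619 in cKO. *Oosp1* had the highest value of the 10 in every library, with 2-cell means of 4323 in WT and 1210 in cKO. At that stage 7 of the 10 lay below both WT libraries in cKO, as did 43.4% of all genes. Means of the others were not lower in cKO, at 132 against 93.0 for *Zp3*, 316 against 249 for *Gdf9* and 4.42 against 4.24 for *Mos*. The 9 measured of 11 markers of the 2-cell stage summed to between 10.4 and 14.5 in zygotes, 652 and 913 in WT 2-cell embryos and 210 and 302 in cKO 2-cell embryos. Of 12 cumulus cell markers 3 were in the table, and they summed to between 24.3 and 28.7 in zygotes, 4.38 and 10.3 in WT and 3.0 and 3.32 in cKO 2-cell embryos. The 3 ran in different directions, with *Cyp19a1* at 22.3 to 26.7 in zygotes and at most 1.78 at the 2-cell stage, and *Tnfaip6* and *Foxl2* at the floor in zygotes and at 1.83 and 7.45 and at 1.55 and 1.06 in WT 2-cell embryos. Of 9 sperm markers 5 were in the table, and they summed to between 17.5 and 24.1 in zygotes and to 18.3 and 25.4 in WT and 5.0, all 5 at the floor, and 8.74 in cKO 2-cell embryos. Here too *Prm2* went from 13.5 to 20.1 in zygotes to 1 and 1.64 in WT 2-cell embryos, while *Tssk6* and *Tnp1* went from the floor to 11.03 and 14.1 and to 4.28 and 5.69. At the 2-cell stage limma called 6 of the 10 oocyte markers, 7 of the 9 markers of the 2-cell stage and 2 of the 5 sperm markers lower in cKO, and 0 of the 3 cumulus markers (1 at an unadjusted p under 0.05). Over all genes 24.6% were lower in limma. Under median-ratio scaling 1 oocyte marker, 2 markers of the 2-cell stage and 2 sperm markers were called lower, and 1747 of all 14392 genes. Under quantile normalization the counts were 6, 5 and 1, and 1464 over all genes. The part of these other RNAs in the results below was not tested.

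On mm9 with GENCODE M1, all 10 members are protein-coding genes. FPKM was deposited per gene, and no source used here names the annotation behind it. *Hormad1* lies on the plus strand at chr3:95363599-95391593 and *Hormad2* on the minus strand at chr11:4245817-4341108. The synaptonemal complex genes are *Sycp1* at chr3:102622422-102740023 and *Sycp2* at chr2:178079998-178142390, both on the minus strand, and *Sycp3* at chr10:87922314-87935981 on the plus strand. The cohesin genes are *Stag3* at chr5:138721468-138753621 and *Rec8* at chr14:56236874-56244232 on the plus strand, and *Smc1b* at chr15:84895121-84962387 on the minus strand. *Mael* at chr1:168131516-168168875 and *Ddx4* at chr13:113388541-113442518 are on the minus strand. Exons of *Sycp3* are overlapped from the other strand by *Chpt1*, and since Smart-seq2 keeps no strand, reads from the overlap cannot be assigned. *Chpt1* was at 2.95 to 4.02 in zygotes and 9.39 to 14.6 in 2-cell embryos, far below *Sycp3*. Exons of *Usp16* are likewise overlapped from the other strand by *Cct8*, whose FPKM was not examined here.

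The promoters were read because the class is known for E2F and E-box sites. In the RefSeq table on GRCm38.p6, which is a later build than the gene coordinates above, all 10 members matched, and the 250 bases upstream of each start were searched on both strands. The letters TCCCGC, a core of E2F sites, were found upstream of 6 members against 16.9% of 32851 promoters. CACGTG, the E-box, was found upstream of 6 members against 6.02% of promoters. Both motifs stood upstream of 4 members, *Hormad1*, *Sycp3*, *Mael* and *Ddx4*, against 1.45% of promoters. All 10 members were above the median GC content of all promoters, 52.4%, and promoters rich in CpG held these letters more often. Among the 11153 promoters with a CpG ratio, observed over expected, of at least 0.6, the shares were 37.5%, 9.49% and 3.54%, and 7 of the members belonged to that group. *Rec8* and *Smc1b* had the E2F core alone, *Sycp1* and *Stag3* the E-box alone, and *Hormad2* and *Sycp2* neither in this window. A match describes the letters only, and no binding was measured.

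The last 150 upstream bases are printed for 5 members, 5′ to 3′ on the strand of the gene. First come the 3 whose cKO 2-cell libraries lay above WT, none of which limma called higher. Then come the 2 that limma called lower in cKO. *Sycp3* and *Stag3* also lay below WT there, but limma did not call them and they are not printed. Both have an E-box upstream, starting at -64 and -43 in *Sycp3* and at -170 in *Stag3*. The 5 printed members therefore do not show how the motifs divide between higher and lower members. Capitals mark the E2F core (TCCCGC or, on the other strand, GCGGGA) and the E-box (CACGTG). On GRCm38.p6 the windows are chr3:95559527-95559676 on the plus strand for *Hormad1*, whose table has 2 starts of which the first is shown, and, on the minus strand, chr3:102936101-102936250 for *Sycp1*, chr13:112652311-112652460 for *Ddx4*, chr15:85131958-85132107 for *Smc1b* and chr2:178407659-178407808 for *Sycp2*.
Hormad1: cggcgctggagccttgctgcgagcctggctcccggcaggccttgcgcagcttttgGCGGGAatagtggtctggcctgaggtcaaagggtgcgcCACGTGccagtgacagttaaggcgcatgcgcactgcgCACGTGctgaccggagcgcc
Sycp1: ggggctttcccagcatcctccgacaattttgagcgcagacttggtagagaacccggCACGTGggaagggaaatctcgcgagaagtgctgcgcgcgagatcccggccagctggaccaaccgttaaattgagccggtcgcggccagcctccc
Ddx4: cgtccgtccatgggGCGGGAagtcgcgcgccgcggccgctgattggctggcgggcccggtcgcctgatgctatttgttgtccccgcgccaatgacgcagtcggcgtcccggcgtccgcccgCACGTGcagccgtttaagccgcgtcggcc
Smc1b: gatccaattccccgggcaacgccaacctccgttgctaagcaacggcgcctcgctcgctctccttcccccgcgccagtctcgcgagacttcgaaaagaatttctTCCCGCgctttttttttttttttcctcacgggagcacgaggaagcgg
Sycp2: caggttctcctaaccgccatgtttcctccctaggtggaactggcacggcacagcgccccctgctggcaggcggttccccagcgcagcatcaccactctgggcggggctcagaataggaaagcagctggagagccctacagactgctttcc

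**Figure D1:**
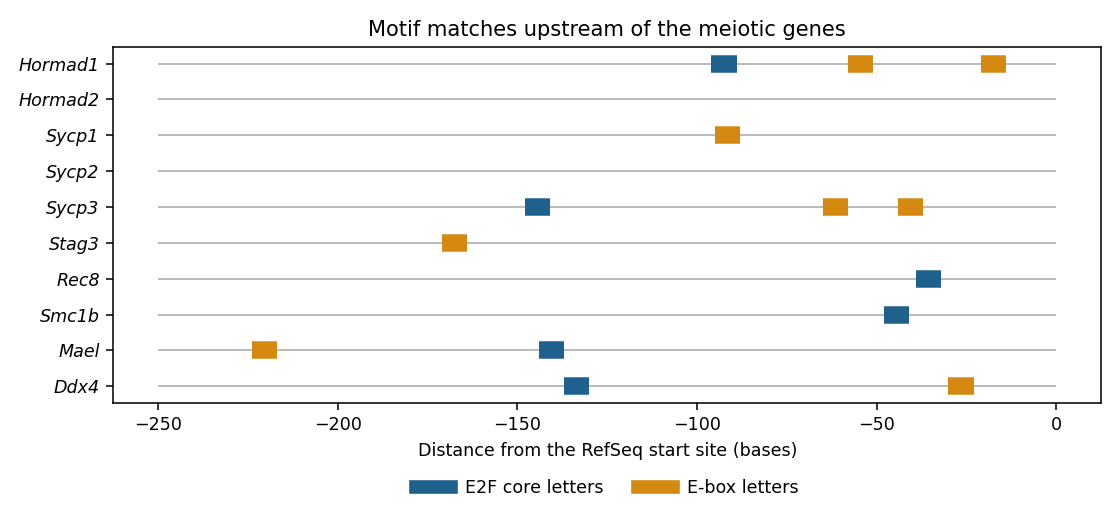
Positions of the E2F core (blue) and the E-box (orange) in the 250 bases upstream of the RefSeq start of each of the 10 members, with the start at 0 on the x axis in bases. In *Hormad1* an E2F core at -95 is followed by E-boxes at -57 and -20, and *Hormad2* and *Sycp2* have no match.

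RNA of 8 of the 10 members was already above the floor in every WT zygote library. There *Sycp3* with a mean of 62.8 ± 33.2 FPKM (SD, n = 2) and *Mael* with 47.2 ± 4.16 led, and their ranges overlapped. Next came *Hormad1*, then *Sycp2*, *Sycp1*, *Smc1b* and *Ddx4*, whose ranges overlapped each with the next. *Hormad2* stood below them, and *Stag3* and *Rec8* were at the floor. By the WT 2-cell stage *Sycp3* led alone at 191 ± 32.6, followed by *Hormad1* at 64.4 ± 8.94 and *Mael* at 54.0 ± 11.9, which overlapped. In cKO 2-cell embryos the order had turned, with *Hormad1* first at 218 ± 65.9, above *Sycp3* at 90.9 ± 36.9 and *Sycp1* at 69.5 ± 1.14, which overlapped each other. *Hormad1* made up 39.4% and 56.4% of the members' summed FPKM in these 2 libraries.

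For calls, 2 rules were used for each comparison. The study's rule calls a gene whose group means differ by more than 3-fold. The other is a limma fit of all 8 libraries together on log2(FPKM + 1), with a Benjamini-Hochberg adjusted p under 0.05. An exact permutation test of 2 libraries against 2 cannot go under 0.333.

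Between WT zygotes and WT 2-cell embryos, *Sycp3* and *Stag3* rose and no member fell by either rule (8.78% of all genes by fold and 15.5% in limma). Over all genes 26.0% rose by more than 3-fold and 34.2% rose in limma, so 2 of 10 members is no more than the background. At an unadjusted p under 0.05 limma had 3 members higher (38.0%) and 0 lower (18.0%). The median of all genes rose by 0.275 on the log2 scale between these stages, and relative to it *Sycp3* rose by 1.41 and *Stag3* by 1.55. Members at the 2-cell stage lay above both zygote libraries for 4 genes (49.4% of all genes) and below both for 2 (26.4%).

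Between cKO and WT zygotes, *Hormad1* was the member that differed most, with a mean 10.1-fold lower in cKO. It was the 1 member of 10 past 3-fold, a side on which 0.0486% of all genes lay, and no member was past 3-fold on the higher side (0.104%). limma called no member in either direction, against 3 genes higher and 0 lower in the whole table. The deleted gene *Usp16*, 9.58-fold lower, was not called either (limma, adjusted p = 0.191). The lack of calls in zygotes therefore does not show the lack of a difference. At an unadjusted p under 0.05, *Hormad1* alone of the members was lower (0.584% of all genes), and no member was higher (2.25%). For *Stag3* and *Rec8*, at the floor in all 4 zygote libraries, no fold can be given. The other 7 members differed between genotypes by 1.40-fold or less in zygotes.

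At the 2-cell stage members lay on both sides of WT, and *Hormad2*, *Mael* and *Rec8* overlapped it. *Hormad1*, *Sycp1* and *Ddx4* lay above both WT libraries in both cKO libraries, which 14.0% of all genes did. *Sycp2*, *Sycp3*, *Stag3* and *Smc1b* lay below both, as 43.4% of all genes did. The 3-fold rule called *Hormad1* higher (2.84% of all genes) and *Smc1b* lower (13.5%). limma called *Smc1b* and *Sycp2* lower (24.6%) and no member higher (6.16%). At an unadjusted p under 0.05 it had 3 members higher (9.14%) and 4 lower (33.4%), which were the same 7 genes. The counts of lower members by non-overlap, by fold and by adjusted p in limma were no more than the background. The median log2 difference of the members was -0.30, and that of all genes was also -0.30. Differences are therefore also given relative to that shift, which median-ratio scaling sets to 0. That scaling turned the split over all genes in limma from 887 higher and 3538 lower to 1437 higher and 1747 lower. Without cKO 2-cell replicate 2 the 3-fold rule called no member higher and 2 lower, *Stag3* and *Smc1b*, and limma no member higher and 3 lower, *Hormad2*, *Stag3* and *Smc1b*.

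**Figure D2:**
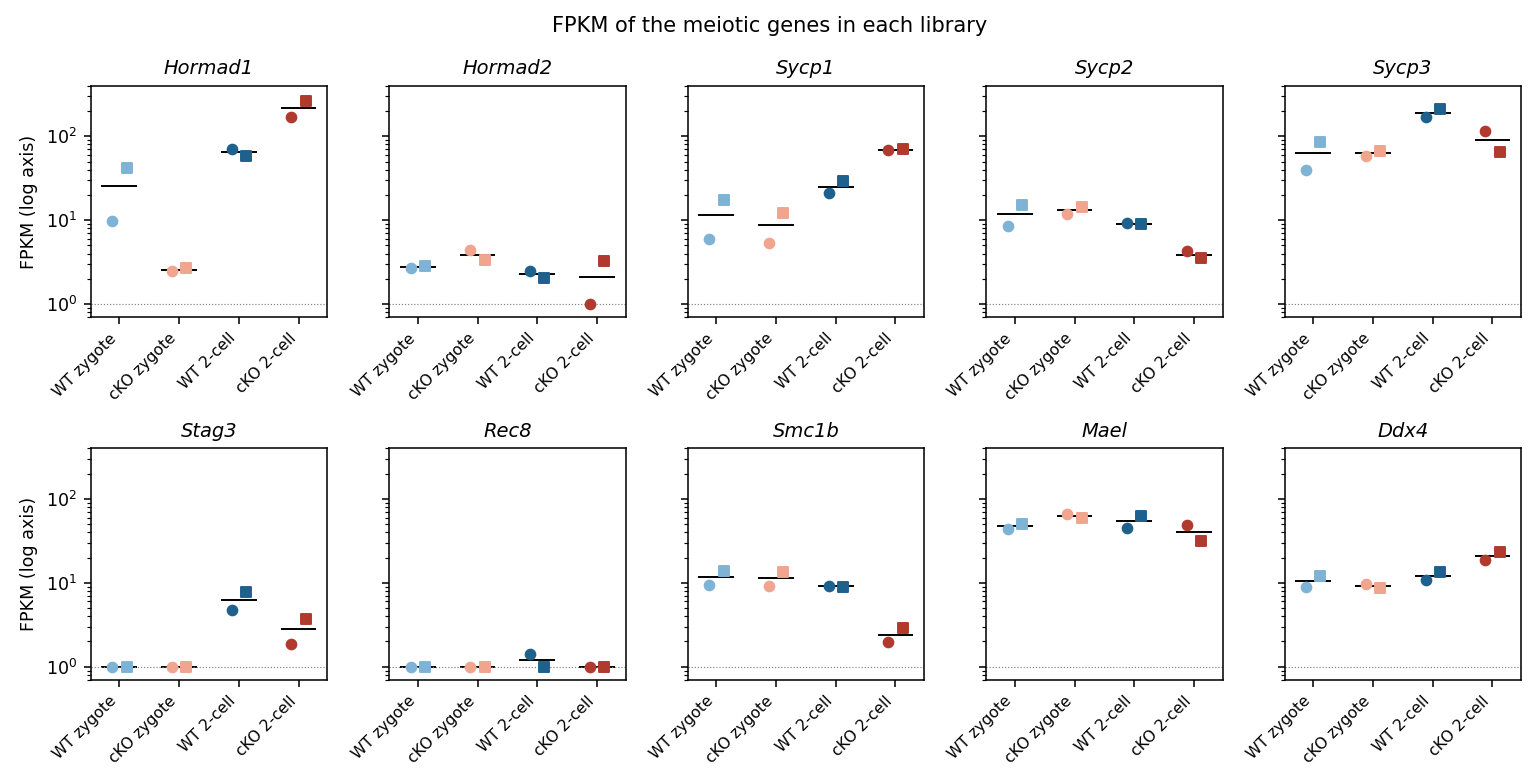
FPKM of each member in each library on a log axis, with replicate 1 as a circle, replicate 2 as a square, the group mean as a black line and the floor of 1 dotted. In cKO 2-cell embryos *Hormad1* (171 and 264) and *Sycp1* (68.7 and 70.3) sit above all WT points, and *Smc1b* (1.96 and 2.88) below them.

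**Figure D3:**
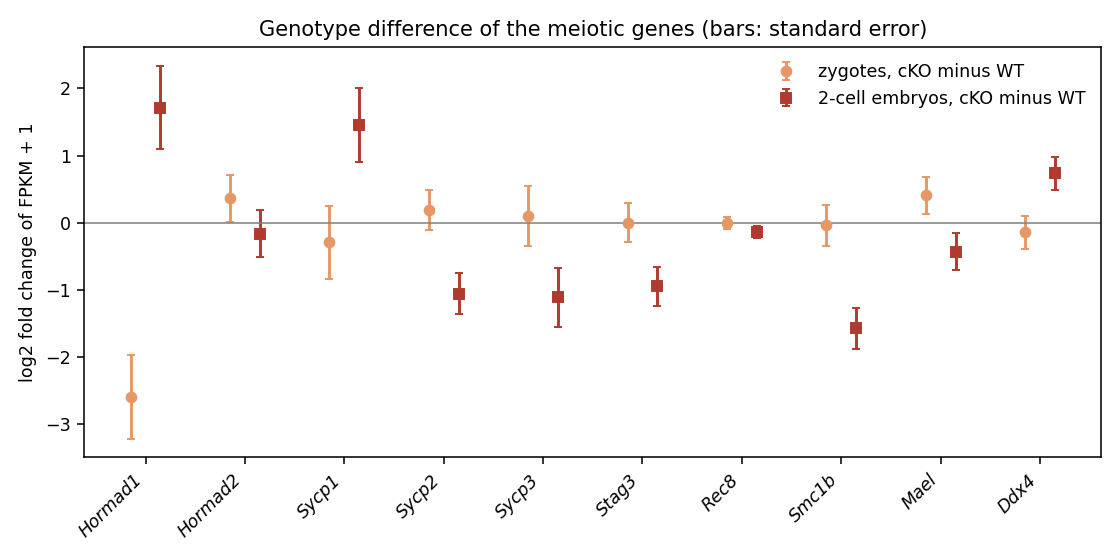
Difference between cKO and WT on the log2(FPKM + 1) scale for each member in zygotes (circles) and 2-cell embryos (squares), with the standard error from limma as bars. *Hormad1* was at -2.60 in zygotes and 1.71 in 2-cell embryos, whereas *Smc1b* was at -0.04 and -1.57.

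*Hormad1*, whose protein marks unsynapsed chromosome axes and recruits checkpoint and break-forming factors, had the widest range of the set. It was at 9.82 and 41.9 FPKM in WT and 2.46 and 2.66 in cKO zygotes, and at the 2-cell stage 70.8 and 58.1 in WT and 171 and 264 in cKO. The cKO zygotes were the lowest and the cKO 2-cell embryos the highest of the 4 groups, and no group overlapped another. In zygotes the log2 difference between cKO and WT was -2.60 ± 0.62 (SE; limma, adjusted p = 0.942). The WT zygote libraries differed 4.27-fold from each other, and the fold to cKO was 3.84 without WT replicate 2 and 16.4 without WT replicate 1. At the 2-cell stage the mean was 3.38-fold higher in cKO, with a log2 difference of 1.71 ± 0.62 (limma, adjusted p = 0.0849) or 2.01 relative to the median of all genes. Without cKO 2-cell replicate 2 the fold was 2.65, and the 3-fold call ended. Leaving out WT zygote replicate 1 or 2 brought the 2-cell difference under an adjusted p of 0.05.

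The change of *Hormad1* from zygote to 2-cell embryo was 85.0-fold upward in cKO, with a log2 change of 5.91 ± 0.62 (limma, adjusted p = 0.000511), and it held under all 16 alternatives. In WT it was 2.49-fold, or 6.57-fold without WT zygote replicate 2 and 1.54-fold without WT zygote replicate 1, with a log2 change of 1.597 ± 0.62 (limma, adjusted p = 0.0764). The genotype effect at the 2-cell stage minus that in zygotes was 4.31 ± 0.88 for *Hormad1* (limma, adjusted p = 0.0333), the only member past the threshold in the higher direction (1.58% of all genes), and none passed in the lower direction (10.2%). At an unadjusted p under 0.05 there were 2 members higher (5.34%) and 2 lower (25.5%). This call held in 5 of 15 alternatives, with adjusted p between 0.0211 and 0.202. It was lost under median-ratio scaling, quantile normalization and array weights, and without any of the 4 zygote libraries, either WT 2-cell library or cKO 2-cell replicate 2.

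*Hormad2*, a paralog with a role in the synapsis checkpoint, was low throughout. Its FPKM was 2.70 and 2.82 in WT and 4.37 and 3.34 in cKO zygotes, and at the 2-cell stage 2.50 and 2.02 in WT and 1 and 3.23 in cKO. The 2-cell libraries of cKO spanned both sides of WT, and neither rule called *Hormad2* in any comparison. On the log2 scale the 2-cell difference was -0.16 ± 0.35 (limma, adjusted p = 0.769), a sign that turned under median-ratio scaling and quantile normalization.

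*Sycp1*, the transverse filament gene, rose from zygote to 2-cell embryo in cKO by both rules and in WT by neither. Its FPKM was 5.91 and 17.5 in WT and 5.42 and 12.3 in cKO zygotes, and at the 2-cell stage 21.03 and 29.0 in WT and 68.7 and 70.3 in cKO. Genotypes overlapped in zygotes and were apart at the 2-cell stage. In cKO the stage change was 7.86-fold, with a log2 change of 2.93 ± 0.55 (limma, adjusted p = 0.00478), and was called in 15 of 16 alternatives. That fold was 12.8 without cKO zygote replicate 2 and 5.67 without cKO zygote replicate 1. In WT it was 2.14-fold, 4.23-fold without WT zygote replicate 2 and 1.43-fold without WT zygote replicate 1 (limma with all libraries, adjusted p = 0.121). At the 2-cell stage cKO was 2.78-fold above WT, just under the 3-fold rule. The log2 difference was 1.46 ± 0.55 (limma, adjusted p = 0.0928), or 1.75 relative to all genes. Without WT 2-cell replicate 2 the fold was 3.30, past the rule, and without WT 2-cell replicate 1 it was 2.40. The genotype effect did not pass the test of a difference between stages (1.75 ± 0.77; limma, adjusted p = 0.187).

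*Sycp2* encodes an axial element protein that partners SYCP3. It was at 8.56 and 15.1 FPKM in WT and 11.98 and 14.4 in cKO zygotes, and at the 2-cell stage 9.15 and 9.11 in WT and 4.26 and 3.51 in cKO. The cKO 2-cell libraries were the lowest of all 8. There *Sycp2* was 2.35-fold below WT with a log2 difference of -1.06 ± 0.30 (limma, adjusted p = 0.0426), and -0.76 relative to all genes. That call held in 5 of 16 alternatives, with adjusted p from 0.0316 to 0.433, and was lost on leaving out any 2-cell library or either cKO zygote library. From cKO zygotes to cKO 2-cell embryos it fell 3.40-fold, a log2 change of -1.54 ± 0.30 (limma, adjusted p = 0.00598) that was called in 15 of 16 alternatives.

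*Sycp3*, the other axial element gene, moved up with development in WT. It was at 39.3 and 86.2 FPKM in WT and 58.1 and 67.4 in cKO zygotes, and at the 2-cell stage 168 and 214 in WT and 117 and 64.7 in cKO. WT 2-cell embryos were above every other library, and cKO 2-cell embryos overlapped the zygotes. The WT change was 3.04-fold, with a log2 change of 1.68 ± 0.44 (limma, adjusted p = 0.0208), and was 2.22-fold without WT zygote replicate 1, 2.68-fold without WT 2-cell replicate 2 and 4.86-fold without WT zygote replicate 2. limma called it in 10 of 16 alternatives and lost it without WT zygote replicate 1 or either WT 2-cell library. In cKO the change was 1.45-fold (log2 0.47 ± 0.44; limma, adjusted p = 0.428). cKO was 2.1-fold below WT at the 2-cell stage, with a log2 difference of -1.11 ± 0.44 (limma, adjusted p = 0.108), or -0.82 relative to all genes. The test of a difference in genotype effect between stages gave -1.22 ± 0.63 (limma, adjusted p = 0.249).

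*Stag3*, the meiotic cohesin subunit common to the REC8 and RAD21L rings, appeared above the floor at the 2-cell stage. It was at the floor of 1 in all 4 zygote libraries, at 4.72 and 7.74 FPKM in WT 2-cell embryos and at 1.87 and 3.70 in cKO 2-cell embryos. Every 2-cell library was above every zygote library, and cKO was below WT. At the floor, the zygote libraries add no spread to the error shared by the groups. The limma errors and p-values of *Stag3* may therefore be too small. From zygotes *Stag3* rose at least 6.23-fold in WT (log2 change 1.82 ± 0.29; limma, adjusted p = 0.00301), which held in all 16 alternatives. In cKO it rose at least 2.79-fold (0.88 ± 0.29; limma, adjusted p = 0.0444), a call kept in 4 of 16 and lost on leaving out any library but cKO 2-cell replicate 1, without which the fold was at least 3.70. Between genotypes at the 2-cell stage it was 2.24-fold lower in cKO (-0.94 ± 0.29; limma, adjusted p = 0.0532), or -0.65 relative to all genes. The fold was 3.33 without cKO 2-cell replicate 2 and 2.78 without WT 2-cell replicate 1. It was 1.68 without cKO 2-cell replicate 1 and 1.69 without WT 2-cell replicate 2.

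*Smc1b*, a meiosis-specific SMC subunit, fell between the stages in cKO, and in WT passed neither rule. It was at 9.38 and 14.0 FPKM in WT and 9.19 and 13.5 in cKO zygotes, and at the 2-cell stage 9.19 and 8.93 in WT and 1.96 and 2.88 in cKO. The 2 cKO 2-cell libraries were the lowest of the 8 by a clear gap. In cKO 2-cell embryos *Smc1b* was 3.74-fold below WT, with a log2 difference of -1.57 ± 0.31 (limma, adjusted p = 0.0131), or -1.27 relative to all genes. This call held in 10 of 16 alternatives, with adjusted p from 0.0079 to 0.266, and was lost under median-ratio scaling, quantile normalization, array weights, a fit of the 4 libraries alone and without either WT 2-cell library. The fall of 4.68-fold from cKO zygotes to cKO 2-cell embryos (-1.84 ± 0.31; limma, adjusted p = 0.00301) was called in 15 of 16. In WT the stage difference was 1.29-fold (-0.31 ± 0.31; limma, adjusted p = 0.435). The test of a difference between stages gave -1.53 ± 0.43 (limma, adjusted p = 0.0715).

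*Rec8*, which encodes the meiotic kleisin, was not detectable above the floor in 7 of the 8 libraries, with 1.42 FPKM in WT 2-cell replicate 1. *Rec8* and *Smc1b* both have the E2F core and no E-box in the upstream window, and differed in level throughout.

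*Mael*, a germ granule and nuclear factor of piRNA-guided transposon silencing, was abundant in every library. It was at 44.2 and 50.1 FPKM in WT and 66.9 and 59.0 in cKO zygotes, and at the 2-cell stage 45.5 and 62.4 in WT and 48.8 and 31.4 in cKO. Genotypes overlapped at the 2-cell stage, and neither rule called *Mael* in any comparison. The 2-cell difference was 1.34-fold, at -0.43 ± 0.28 on the log2 scale (limma, adjusted p = 0.28), or -0.14 relative to all genes, and its sign turned under median-ratio scaling.

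*Ddx4* was at 8.89 and 11.9 FPKM in WT and 9.80 and 8.72 in cKO zygotes, and at the 2-cell stage 10.9 and 13.5 in WT and 18.5 and 23.5 in cKO. The cKO 2-cell libraries were the 2 highest of the 8. *Ddx4* was 1.72-fold above WT at the 2-cell stage, with a log2 difference of 0.74 ± 0.25 (limma, adjusted p = 0.0687), or 1.03 relative to all genes, and passed in limma under median-ratio scaling and quantile normalization. From cKO zygotes it rose 2.27-fold (1.09 ± 0.25; limma, adjusted p = 0.0108), which held in 14 of 16 alternatives and was lost under array weights and without cKO zygote replicate 2. In WT the change was 1.17-fold (0.21 ± 0.25; limma, adjusted p = 0.507), and its sign turned under median-ratio scaling and quantile normalization.

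Between cKO zygotes and cKO 2-cell embryos members were called in both directions. *Hormad1*, *Sycp1*, *Stag3* and *Ddx4* rose in limma (24.6% of all genes) and *Sycp2* and *Smc1b* fell (27.1%). By the 3-fold rule *Hormad1* and *Sycp1* rose (22.8%), and *Sycp2* and *Smc1b* fell (19.2%), so the counts by fold were near the background. In limma 4 of 10 members rose and 2 of 10 fell, which with 10 genes is not read as a difference from those shares. Of the 4, *Stag3* kept its call in only 4 of 16 alternatives. The 2 genotypes' changes were compared directly in the test of a difference in genotype effect between stages, in which 1 of 10 members passed.

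**Figure D4:**
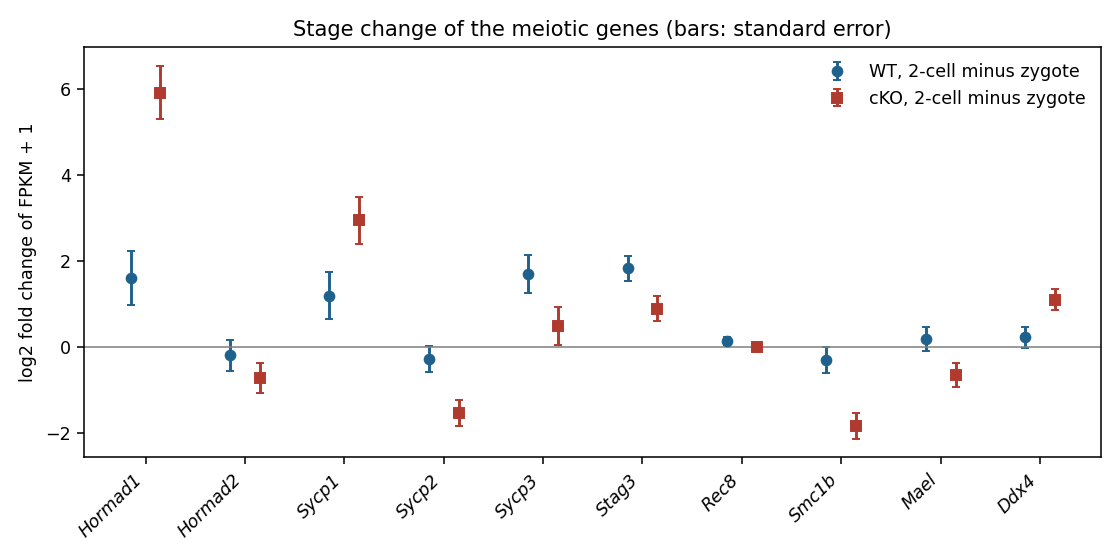
Change from zygote to 2-cell embryo on the log2(FPKM + 1) scale in WT (circles) and cKO (squares), with the standard error from limma as bars. *Hormad1* was at 1.597 in WT and 5.91 in cKO, *Sycp3* at 1.68 and 0.47, and *Smc1b* at -0.31 and -1.84.

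Pairs of the 7 members above the floor in every library (not *Hormad2*, *Stag3* and *Rec8*) were compared across the 8 libraries, as a description over 4 groups of 2 libraries that share stage and genotype. Pearson's r of log2(FPKM + 1) was 0.953 for *Sycp2* and *Smc1b*, 0.916 for *Sycp1* and *Ddx4* and 0.905 for *Hormad1* and *Sycp1*. *Ddx4* ran against *Sycp2* (-0.85) and *Smc1b* (-0.85). *Sycp3*, though below WT in cKO 2-cell embryos like *Sycp2* and *Smc1b*, had little correlation with them (-0.063 and -0.081) and a weak positive one with *Hormad1* (0.493), *Sycp1* (0.496) and *Ddx4* (0.251). Of all genes in the table, the pattern of *Sycp3* was most like those of *Smchd1* (r = 0.985) and *Rock2* (0.977), that of *Hormad1* like those of *Snurf* (0.942) and *Med20* (0.939), and that of *Mael* like those of *Inpp5b* (0.967) and *Samhd1* (0.954). *Snurf* lay at or near the floor, with means of 1.16 FPKM in WT and 1 in cKO zygotes and of 1.496 and 2.00 at the 2-cell stage, which limits what its r can show. *Med20*, a Mediator subunit, had means of 13.6 FPKM in WT and 8.27 in cKO zygotes and of 38.3 and 52.0 at the 2-cell stage.

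The other genes of the pathway were read from fixed lists for cKO against WT at the 2-cell stage, where 6.16% of all genes were higher and 24.6% lower in limma. Of 10 other synaptonemal complex and axis genes, limma called 1 higher and 1 lower, with a median log2 difference of 0.20. *Syce3*, a central element gene, was past 3-fold, at 8.99 and 7.01 FPKM in WT and 11.2 and 46.0 in cKO, without passing limma (adjusted p = 0.123). Its 3.58-fold difference became 1.40-fold without cKO 2-cell replicate 2, and the 3-fold call ended. The 2 limma calls, named after their values were seen, were *Trip13*, the ATPase that strips HORMA proteins from axes, which was higher at 100.5 and 70.3 against 47.4 and 37.0 (adjusted p = 0.0314), and the central element gene *Syce2*, which was lower at 82.7 and 152.5 against 324 and 229 (adjusted p = 0.0425). The *Trip13* call held in 8 of 16 alternatives and that of *Syce2* in 5.

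Of 19 meiotic recombination genes, 16 were in the table and limma called 2 lower, with a median of -0.07. The 2, named after their values were seen, were *Prdm9*, which sets recombination hotspots, at 5.16 and 5.41 FPKM in WT and 2.85 and 1.84 in cKO (adjusted p = 0.00955), and *Zcwpw1*, a reader of the marks PRDM9 leaves, at 11.98 and 17.7 against 5.47 and 4.61 (adjusted p = 0.0121). Neither call was left under quantile normalization or in a fit of the 4 libraries of the 2-cell stage alone. *Prdm9* was at the floor in all 4 zygote libraries, which therefore add no spread to the error shared by the groups.

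Genes of meiotic entry and telomere attachment had the lowest median of the wider meiotic lists, -0.87, with 3 of 7 called lower in limma. *Dazl*, an RNA-binding regulator of germ cells, was at 71.4 and 57.5 FPKM in WT and 19.3 and 21.1 in cKO, 3.19-fold lower (adjusted p = 0.00539). *Terb1*, listed under the symbol *Ccdc79*, which links telomeres to the nuclear envelope, was at 5.91 and 4.14 against 2.07 and 1, a fold of 3.28 (adjusted p = 0.0217). *Stra8*, the gatekeeper of meiotic entry, named after its values were seen, was at 2.40 and 3.57 against 1 and 1.32 (adjusted p = 0.00933). These calls held in 14 of 16 alternatives for *Dazl*, 7 of 16 for *Terb1* and 11 of 15 for *Stra8*. None of the 3 was left in a fit of the 4 libraries of the 2-cell stage alone. *Stra8* was at the floor in all 4 zygote libraries. By fold, *Dazl* was 2.85-fold lower without WT 2-cell replicate 1, and *Terb1* 2.70-fold without WT 2-cell replicate 1 and 2.43-fold without cKO 2-cell replicate 2, so that the 3-fold call ended. Under median-ratio scaling 1 of the 3 calls was left.

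Of 21 other piRNA and germ granule genes, 18 were in the table and limma called 5 lower, with a median of -0.19. The largest difference was that of *Nanos2*, a translational repressor of germ cells, at 27.5 and 17.0 FPKM in WT and 3.004 and 2.43 in cKO, 8.19-fold lower (adjusted p = 0.00244, held in 15 of 16 alternatives). *Tdrd9*, a helicase of the piRNA pathway, was at 3.48 and 5.91 against 1.40 and 1 (adjusted p = 0.0258). That call held in 8 of 16 alternatives and was lost under median-ratio scaling, quantile normalization, array weights and a fit of the 4 libraries alone, and without either cKO zygote library, WT 2-cell replicate 2 or cKO 2-cell replicate 2. Its fold of 3.91 became 2.90 without WT 2-cell replicate 2. The other 3, named after their values were seen, were *Piwil1*, *Dnd1* and *Pld6*, called in 13, 15 and 10 of 16 alternatives. None of these 3 was called in a fit of the 4 libraries of the 2-cell stage alone. *Dnd1* and *Pld6* were at the floor in all 4 zygote libraries, which add no spread to the shared error. *Nanos3* was 3.14-fold higher, at 5.19 and 20.8 against 4.17 and 4.10 (adjusted p = 0.152). Without cKO 2-cell replicate 2 it was 1.25-fold higher, and the 3-fold call ended. Median-ratio scaling left 3 lower and 1 higher, and over all genes 1747 lower and 1437 higher. Zygotes had higher means of *Nanos2*, 60.1 in WT and 38.9 in cKO, and of *Dazl*, 488 and 589, than 2-cell embryos of either genotype.

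The mitotic cohesin genes, which build the ring of ordinary cell division, had a median of 0.55. *Stag2* rose from 13.7 and 9.42 FPKM in WT to 26.2 and 23.8 in cKO (adjusted p = 0.0251, held in 11 of 16 alternatives). *Rad21*, at 98.05 and 82.4 in WT and 177 and 98.8 in cKO, and *Smc3*, at 10.3 and 13.5 against 51.5 and 14.8, were above WT without passing limma. *Stag1*, at 9.53 and 10.8 against 6.86 and 5.32, was below WT, and *Smc1a* overlapped, and neither passed limma.

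Of the 5 measured subunits of PRC1.6, limma called 0, also at an unadjusted p under 0.05. *Pcgf6* was at 170.0 and 166 FPKM in WT and 256 and 181 in cKO, above both WT libraries. *E2f6*, at 3.09 and 3.31 against 3.63 and 1, lay on both sides of WT. *L3mbtl2* (21.55 and 32.3 against 26.1 and 9.03) and *Mga* (10.7 and 13.2 against 33.3 and 9.18) overlapped between genotypes. *Max*, at 92.0 and 25.9 against 8.06 and 27.3, was 3.33-fold lower by its means while its libraries overlapped, and was 1.46-fold lower without WT 2-cell replicate 1 and 7.32-fold lower without cKO 2-cell replicate 2. *Pcgf6* was 1.53-fold higher without cKO 2-cell replicate 2 and 1.08-fold higher without cKO 2-cell replicate 1. Under median-ratio scaling limma called 1 of the 5 higher, and 1437 of all 14392 genes.

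**Figure D5:**
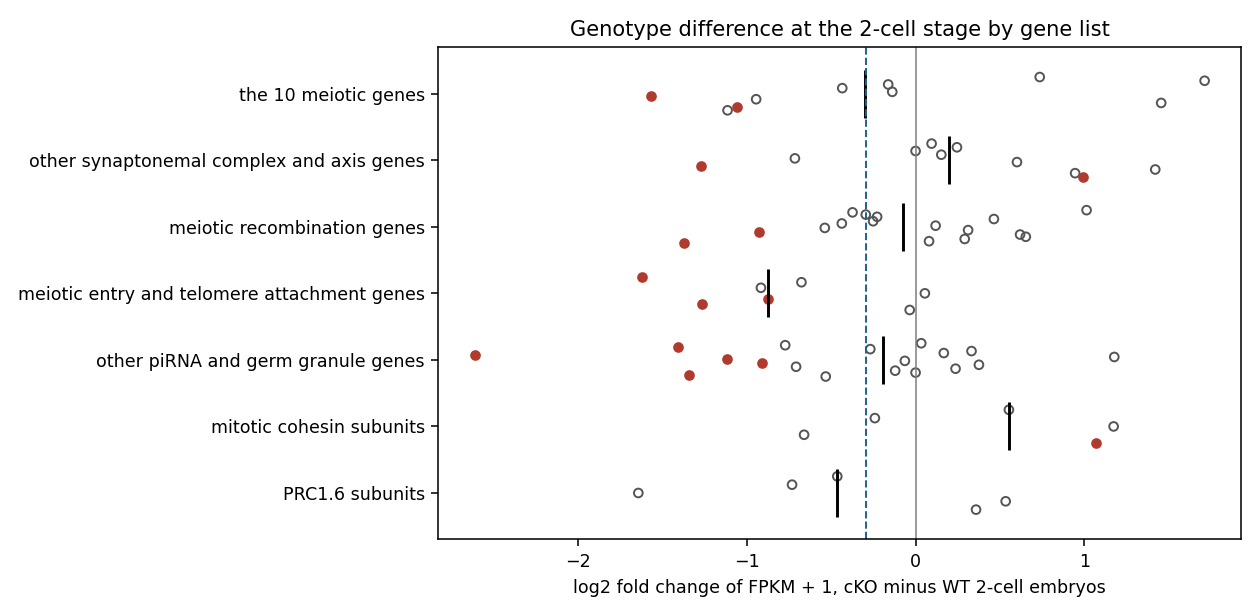
Difference between cKO and WT 2-cell embryos on the log2(FPKM + 1) scale for each gene of each list, with filled red points for genes called by limma, a black bar at the median of the list and a dashed line at the median of all genes (-0.30). The members' median lies on the dashed line, that of the meiotic entry and telomere genes to its left at -0.87, and that of the mitotic cohesin genes to its right at 0.55.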

How the data were processed

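Poly(A) RNA of pooled embryos was profiled by Smart-seq2 in 8 of the 15 samples of the series, and the other 7 were not analysed here. The authors trimmed reads to 50 bp, mapped them to mm9 with TopHat2 (2.1.1) and computed FPKM with Cufflinks (2.2.1), and deposited FPKM per gene after setting values under 1 to 1 and dropping genes under 1 throughout, which the table bears out. FPKM carries no counts, so depth, and with it counting error, is unknown.

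Group means were compared by the 3-fold rule, and log2(FPKM + 1) was fitted in limma 3.58.1 (R 4.3.3) with a trend and 4 groups in 1 model, which left 4 residual degrees of freedom, and p-values were adjusted by Benjamini-Hochberg over all 14392 genes at 0.05. Fold changes on this scale understate those of low genes. The fold and limma steps were run on simulated libraries with the means and spread of WT 2-cell embryos. Changes were set only in genes well above the floor. That run does not cover members near the floor, the spread between zygote libraries or the deviant cKO 2-cell replicate 2. Python 3.11.15, numpy 2.4.6, pandas 2.3.3 and matplotlib 3.10.9 served the rest. Members and lists were chosen with earlier results of these data known. Genes named were *Usp16*, the members, per list up to 2 genes a direction past 3-fold with non-overlapping libraries, whole lists of at most 5 genes, leading markers, and the 2 genes most like each of the 3 highest members above the floor throughout. Alternatives were another threshold, pseudocount, filter, scaling, model, a replicate block and leaving out each library.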

Additional observations from a re-analysis of the deposited data

Results flagged for a closer look

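The genotype effect of *Hormad1*, cKO against WT, differed between stages when the difference itself was tested. It was -2.60 on the log2(FPKM + 1) scale in zygotes and 1.71 in 2-cell embryos, a difference of 4.31 ± 0.88 (SE; limma, adjusted p = 0.0333). Both cKO zygote libraries lay below both WT libraries, and both cKO 2-cell libraries above both WT libraries. Over 15 alternatives the adjusted p ran from 0.0211 to 0.202 and passed in 5.

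*Usp16*, the deleted gene, was flagged by the same test, with -3.21 in zygotes, -0.55 in 2-cell embryos and a difference of 2.65 ± 0.48 (limma, adjusted p = 0.0251). Over 15 alternatives the adjusted p ran from 0.00531 to 0.126 and passed in 8. Whether the *Hormad1* difference is related to that of *Usp16* was not tested.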

How the results depend on the processing

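In WT from zygote to 2-cell, the 3-fold rule called 2 members higher. A 2-fold threshold gave 4, a demand on every library 1 and median-ratio scaling 1, and leaving out 1 library gave 1 to 4. limma's 2 became 1 under median-ratio scaling, array weights or a fit of the 4 libraries alone, and 1 to 4 without 1 library (4 without WT zygote replicate 2). Its count of lower members went from 0 to 2 under quantile normalization. For cKO against WT 2-cell embryos by fold, 1 member was higher, with 2 at 2-fold, 0 on every library, 2 under median-ratio scaling, 0 under sum scaling and 0 (without cKO 2-cell replicate 2) to 2 without 1 library. The 1 lower became 4 at 2-fold, 0 with a pseudocount of 1, 0 under median-ratio scaling and 1 to 2 without 1 library. In limma, 0 higher became 1 under median-ratio scaling (*Ddx4*), 1 under quantile normalization (*Ddx4*) and 0 to 1 without 1 library. The 2 lower became 0 under median-ratio scaling, quantile normalization, array weights or the 4 libraries alone, 0 (without WT 2-cell replicate 1) to 3 (without cKO 2-cell replicate 2) without 1 library, and *Rec8* was called without WT 2-cell replicate 2. The 1 member whose genotype effect differed between stages, *Hormad1*, became 0 under median-ratio scaling, quantile normalization and array weights, and 0 to 1 without 1 library. That 1 was *Hormad1* without cKO 2-cell replicate 1, but *Rec8* without WT 2-cell replicate 2 and *Hormad2* without cKO 2-cell replicate 2. A group left with 1 library was assumed to vary like the others. The causes were not tested. Over all 14392 genes, limma for cKO against WT 2-cell embryos called 887 higher and 3538 lower in the fit reported. These were 1437 and 1747 under median-ratio scaling and 1370 and 1464 under quantile normalization. From WT zygote to WT 2-cell they were 4921 and 2224, 3623 and 2736, and 3102 and 3935 in the same order. For the other settings, replicate blocks included, no share over all genes is given. Their counts do not show whether members moved apart from the other genes.

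The groups carry the same replicate numbers without any stated pairing. Deviations of same-numbered libraries correlated at 0.497 in zygotes and -0.239 in 2-cell embryos. With a replicate block, limma called 1 member higher (*Sycp1*) and 2 lower (*Stag3* and *Smc1b*) at the 2-cell stage. Crossed pairing of the 2-cell libraries, a replicate block chosen after the data were seen, gave 1 higher and 3 lower.

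Signs turned in values that passed no test in the fit reported. From WT zygote to WT 2-cell, *Rec8* was -0.0158 under quantile normalization, *Mael* was -0.15 under median-ratio scaling and -0.16 under quantile normalization, and *Ddx4* was -0.0936 and -0.49. Without 1 library, *Sycp2* ran from -0.67 to 0.083 and *Mael* from -0.046 to 0.40. In zygotes, cKO against WT without 1 library ran from -1.005 to 0.42 for *Sycp1*, -0.18 to 0.56 for *Sycp2*, -0.46 to 0.66 for *Sycp3*, -0.30 to 0.23 for *Smc1b* and -0.33 to 0.0505 for *Ddx4*. At the 2-cell stage *Hormad2* was 0.26 under median-ratio scaling, 0.46 under quantile normalization and -0.70 to 0.38 without 1 library, and *Mael* was 0.033 under median-ratio scaling. The stage difference of *Hormad2* was 0.17 under quantile normalization and -1.06 to 0.017 without 1 library. Over all single values and alternatives, 21 turned sign, 33 lost their call, 21 gained one and 531 kept both. With 2 libraries a group and a floor of 1 FPKM, small differences in *Rec8*, *Hormad2* and *Stag3* could not be resolved.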
